A study of Mus musculus with 10 samples.

Results

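Orthograft tumours grown from the mouse prostate cancer line CP2 were compared with those grown from the line CP1, to ask how separate lines with the same stabilised beta-catenin allele differ. Tumours were assigned to a line by their tissue label, which gave 4 CP2 and 3 CP1 tumours of the 10 in the series, the other 3 being tumours of the line P1. Both CP lines came from prostate tumours of mice with a prostate-specific deletion of exon 3 in 1 copy of Ctnnb1, written Ctnnb1pc(ex3)Δ/+ in the labels, and the labels give both lines the same genotype. The CP1 donor was 6 months old, the CP2 donor 8 months old and the P1 donor 14 months old. Line, donor and donor age therefore cannot be told apart. Cells were first grown as spheroids in Matrigel and then on plastic, and about 5000000 were injected into 1 anterior prostate lobe of a male CD-1 Nude mouse. Nude mice lack a normal thymus and most T cells but keep natural killer cells, macrophages and neutrophils. RNA of the whole tumour was sequenced, so host cells are included, and a lower level of a marker can mean fewer cells of a type or less RNA per cell, which cannot be told apart. The labels do not tie libraries to separate animals, and p-values measure the spread between these samples, which may in part be technical.

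Beta-catenin, encoded by Ctnnb1, links cadherins to the cytoskeleton at cell contacts and carries the canonical Wnt signal into the nucleus. Exon 3 holds the phosphorylation sites that mark the protein for destruction, and its loss lets the protein accumulate and act with the factors Tcf7, Lef1, Tcf7l1 and Tcf7l2 on target genes. Many of these targets, such as Axin2, Nkd1, Notum and Rnf43, encode inhibitors of the same pathway and form a negative feedback. In the mouse prostate, stabilised beta-catenin is known to give hyperplasia and neoplasia, often with squamous change.

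Total counts were 25081535 to 30546426 in CP1 and 18800912 to 20638085 in CP2. A count of 3 in a library corresponded to 0.100 to 0.126 CPM, the counts-per-million scale, in CP1 and to 0.139 to 0.157 CPM in CP2, so the lower limit was slightly higher in CP2. In a principal component analysis of the 500 genes that varied most, component 1 (83.3% of variance) separated the lines. Component 2 (8.16%) set CP1 replicate 1 apart from CP1 replicates 2 and 3. CP1 replicates 2 and 3 also held the most transcripts of urothelium, the bladder lining, at 0.0176, 0.164 and 0.0762% of counts in CP1 replicates 1, 2 and 3 against 0.0133 to 0.016% in CP2. Smooth muscle transcripts took 0.0821, 0.36 and 0.518% in the same CP1 tumours and 0.0744 to 0.111% in CP2. Results that rest on CP1 replicates 2 and 3 are therefore given also without them where a call was lost or a count moved by over 1.5 times, which leaves 1 CP1 tumour assumed to vary as CP2 does. The title of CP2 replicate 1 names CP1 although its tissue label names CP2. Among the 7673 genes called between the lines without it, its level was nearer to the other CP2 tumours than to CP1 for 6981 (91.0%).

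Of 16227 genes tested, 8388 (51.7%) differed between the lines at an adjusted p under 0.05, with 4090 (25.2%) higher and 4298 (26.5%) lower in CP2. The differences were mostly small. The median absolute log2 fold change over all tested genes was 0.43, and 59.7% of the called genes differed by less than 2-fold. A test against a 2-fold change called 1799 genes (11.1%), 885 of them higher (5.45%) and 914 lower (5.63%). The 7 tumours' values did not overlap between the lines for 8903 genes (54.9%). Because 51.7% of all genes were called, counts in the lists below are read against these shares. Fold changes are log2 of CP2 over CP1 with the SE, and adjusted p-values come from edgeR's quasi-likelihood test over all 16227 genes.

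The Wnt feedback genes were higher in CP2. Of 16 listed genes 15 passed the filter on low counts, and 12 of these were higher and 0 lower in CP2, against 25.2% and 26.5% of all genes. All 12 also passed the test against a 2-fold change (5.45% of all genes), and the list's median was 1.77 against -0.01 over all genes. The values of the 12 did not overlap between the lines, which held for 54.9% of all genes. Without CP1 replicates 2 and 3 the counts were 12 higher and 1 lower of 15. 

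Sequence upstream of the Wnt feedback genes was searched for CTTTGAT or CTTTGAA, core sequences recognised by Tcf and Lef factors, on both strands. The RefSeq promoter windows (GRCm38.p6) run from 250 bases before to 50 after a start, and 11 of the 16 genes had one or more, 20 windows in all. A match was found for Sp5 and Tnfrsf19, shown here with the motif in capitals because they are the windows of the list that hold it.
Sp5 (chr2:70474762-70474882, plus strand, -161 to -41): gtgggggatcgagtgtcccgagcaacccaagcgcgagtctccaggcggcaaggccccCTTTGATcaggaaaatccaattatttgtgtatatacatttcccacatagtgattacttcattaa
Tnfrsf19 (chr14:61038126-61038237, minus strand, -250 to -139): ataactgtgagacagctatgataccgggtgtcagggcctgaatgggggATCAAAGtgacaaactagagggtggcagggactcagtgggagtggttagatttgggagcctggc
Positions count from the start, the base before it being -1. In Sp5 the motif lies on the strand of the gene, and in Tnfrsf19, at 1 of its starts, on the other strand, where it reads as its reverse complement. Over all genes tested with a window, 7.49% held a match, against 7.79% of the genes called higher and 6.81% of those called lower in CP2. With CTTTGAT alone the shares were 3.23%, 3.73% and 2.93%. Among genes past 2-fold, 8.10% of those higher and 8.01% of those lower held either motif, and 4.76% and 3.39% held CTTTGAT. No match in a window says only that these letters are not in it.

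Among the inhibitors that act inside the cell, Axin2, a scaffold of the complex that destroys beta-catenin, is the reporter most used for the pathway. Axin2 (ENSMUSG00000000142, chr11:108920349-108950783, plus strand) stood at 212, 231 and 223 CPM in CP1 and 662, 649, 581 and 600.2 CPM in CP2 (log2 1.49 ± 0.07, adjusted p = 1.35e-05). The CP1 tumours lay within a narrow band and every CP2 tumour was more than 2-fold above it. Nkd1, which binds Dishevelled, had 163, 216 and 102 CPM in CP1 and 1838, 1951, 1760 and 1828 CPM in CP2 (log2 3.52 ± 0.25, adjusted p = 4.42e-05). Its relative Nkd2 had 5.67, 10.9 and 10.7 CPM in CP1 and 414, 375, 332 and 496 CPM in CP2 (log2 5.48 ± 0.29, adjusted p = 1.69e-05). Nkd2 was thus low in every CP1 tumour and far higher in every CP2 tumour.

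The genes of secreted and membrane inhibitors followed the same order. Notum, a secreted enzyme that removes the lipid of Wnt ligands, had 50.2, 60.8 and 23 CPM in CP1 and 693, 544, 515 and 468 CPM in CP2 (log2 3.63 ± 0.35, adjusted p = 0.000146). Rnf43 and Znrf3 encode ubiquitin ligases that clear Frizzled receptors from the membrane. Rnf43 had 31.4, 58.3 and 35.6 CPM in CP1 and 154, 162, 120.4 and 136 CPM in CP2 (log2 1.77 ± 0.23, adjusted p = 0.000548) and Znrf3 38.9, 42.6 and 36.3 CPM in CP1 and 113, 106, 101 and 103 CPM in CP2 (log2 1.43 ± 0.08, adjusted p = 1.81e-05). For these 3 genes the lowest CP2 tumour stood well above the highest CP1 tumour. Apcdd1, an inhibitor at the cell surface, had 748, 1081 and 592 CPM in CP1 and 4115, 3258, 3373 and 3603 CPM in CP2 (log2 2.15 ± 0.21, adjusted p = 0.00016). Bambi, a decoy receptor of the BMP and TGF-beta pathways, had 4.22, 8.25 and 8.43 CPM in CP1 and 141, 149, 123 and 144 CPM in CP2 (log2 4.32 ± 0.25, adjusted p = 2.14e-05). Tnfrsf19 (Troy), a receptor of the TNF family, had 188, 169 and 180.5 CPM in CP1 and 492, 431, 526 and 417 CPM in CP2 (log2 1.38 ± 0.10, adjusted p = 4.60e-05). Here too no CP1 tumour reached any CP2 tumour.

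Among the transcription factors of the list, Sp5, a zinc finger factor, showed the greatest fold change of the 15 genes. It had 1.71, 1.14 and 0.378 CPM in CP1 and 87.7, 94.7, 78.1 and 81.2 CPM in CP2 (log2 6.28 ± 0.36, adjusted p = 2.09e-05). Tcf7 had 56.7, 50.4 and 32.1 CPM in CP1 and 240.4, 269, 239 and 294 CPM in CP2 (log2 2.49 ± 0.20, adjusted p = 7.09e-05), and Lef1 had 9.45, 7.99 and 8.85 CPM in CP1 and 27, 31.1, 29.2 and 31.3 CPM in CP2 (log2 1.76 ± 0.10, adjusted p = 2.09e-05). Both partners of beta-catenin were higher in every CP2 tumour. The other partners were not called. Tcf7l2 had 34.9, 27 and 26.3 CPM in CP1 and 27.3, 27.5, 28.2 and 25.4 CPM in CP2 (log2 -0.12 ± 0.11, adjusted p = 0.405), and Tcf7l1 had 8.73 ± 4.25 CPM in CP1 and 6.94 ± 1.76 CPM in CP2 (log2 -0.33 ± 0.33, adjusted p = 0.423). Their values overlapped between the lines, as did those of Zbed3, an Axin-binding factor (log2 0.08 ± 0.10, adjusted p = 0.537). Without CP1 replicates 2 and 3 Tcf7l2 was called lower in CP2, at -0.37 (adjusted p = 0.0345). 

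**Figure D1:**
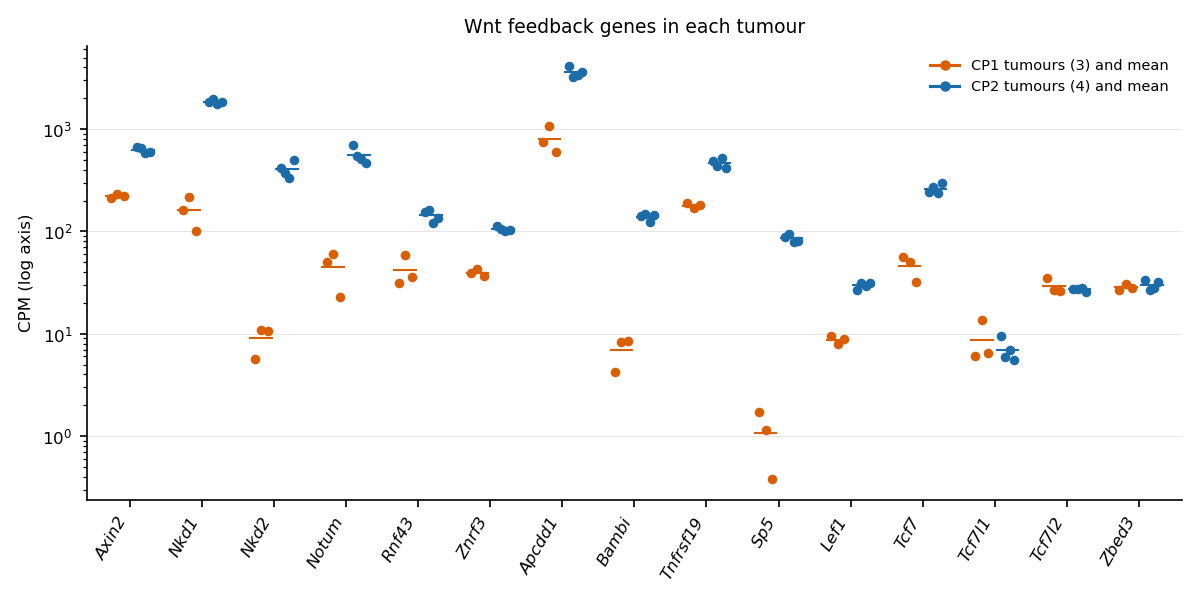
Level of the 15 tested Wnt feedback genes in each tumour, in CPM on a log axis, with CP1 in orange, CP2 in blue and a line at each mean. For 12 genes all 4 CP2 tumours lie above all 3 CP1 tumours, and for Tcf7l1, Tcf7l2 and Zbed3 the points overlap.

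Transcripts of Ctnnb1 itself did not differ detectably. Ctnnb1 (ENSMUSG00000006932, chr9:120929216-120960507, plus strand) had 1206, 943 and 1175 CPM in CP1 and 1063, 1064, 954 and 1041 CPM in CP2 (log2 -0.10 ± 0.10, adjusted p = 0.402), with overlapping values. Counts summed over the gene cannot show whether exon 3 is missing. The P1 tumours, which carry no Ctnnb1 allele of this kind in their labels, gave a reference for the feedback genes. Their line, donor and donor age differ too, and cannot be told apart from the allele. With all 10 tumours scaled together, Axin2 had 31.9, 35.4 and 18.6 CPM, Nkd1 49.7, 29.9 and 22.6 CPM and Apcdd1 28.9, 8.61 and 11.5 CPM in P1. Each of these values was below the lowest CP1 tumour for its gene. For Sp5, Nkd2 and Bambi this was not so. P1 had 2.83, 3.96 and 1.9 CPM for Sp5 and 103, 72.4 and 62.1 CPM for Nkd2. Both sets lay above every CP1 tumour and below every CP2 tumour. For Bambi P1 had 10.8, 6.52 and 8.07 CPM, which overlapped the CP1 values of 4.22, 8.25 and 8.43 CPM. P1 values of the other feedback genes are not given here. The CP1 and CP2 values were scaled over their 7 tumours alone. A small gap to P1, as for Sp5, may therefore rest on the scaling.

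The genes most often read as beta-catenin targets in the intestinal crypt did not move together. Of 16 tested 5 were higher and 4 lower in CP2, with a median of 0.08. The higher count fell to 3 without CP1 replicate 2, without CP2 replicate 1 or without CP2 replicate 3, and to 2 without CP1 replicates 2 and 3. Ccnd1, encoding cyclin D1, which drives entry into S phase, had 322, 401 and 419 CPM in CP1 and 1176, 1082, 1175 and 957 CPM in CP2 (log2 1.53 ± 0.12, adjusted p = 6.72e-05). Rgmb, a BMP co-receptor, had 20.3, 18.9 and 24.4 CPM in CP1 and 65.1, 62.2, 67.1 and 52.9 CPM in CP2 (log2 1.55 ± 0.12, adjusted p = 6.51e-05). Both sets of values were higher in every CP2 tumour. Myc, a growth-promoting transcription factor and a classical target in the intestine, was lower, at 66.8, 59.7 and 77 CPM in CP1 and 43.3, 46.2, 43.9 and 41.2 CPM in CP2 (log2 -0.63 ± 0.09, adjusted p = 0.00106), and so was the receptor gene Ephb3 (log2 -1.10 ± 0.09, adjusted p = 7.14e-05). Tiam1, an activator of the GTPase Rac, had 123, 72.1 and 117 CPM in CP1 and 11.4, 15.9, 14.9 and 12.9 CPM in CP2 (log2 -2.92 ± 0.20, adjusted p = 4.13e-05). Each of these 3 genes was lower in all CP2 tumours than in any CP1 tumour. Mycn, a relative of Myc, was nearly absent from CP1 and low in CP2, at 0.291, 0.167 and 0.0839 CPM in CP1 and 1.73, 2.35, 2.09 and 1.97 CPM in CP2 (log2 3.44 ± 0.37, adjusted p = 0.000238).

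Wnt ligand genes were higher in CP2 more often than lower. Of 19 listed, 14 passed the filter, and 7 were higher and 2 lower in CP2, with a median of 1.23. That median depends on which genes pass, as Wnt16, Wnt3 and Wnt7a were near 0 in CP1 and passed through CP2. It was 0.03 with no filter on low counts (17 tested) and 0.55 with P1 in the fit (15 tested). Under both settings 7 genes were again higher and 2 lower. Wnt16 (ENSMUSG00000029671, chr6:22288227-22298522, plus strand) had 0.0727, 0.0334 and 0.042 CPM in CP1 and 28.1, 29.1, 34.5 and 31.5 CPM in CP2 (log2 9.14 ± 0.21, adjusted p = 1.45e-06), a change from near the detection limit to a clear level in each CP2 tumour. Wnt10a had 22.1, 35.6 and 42.6 CPM in CP1 and 174, 206, 189.6 and 199.8 CPM in CP2 (log2 2.52 ± 0.22, adjusted p = 8.95e-05), and Wnt6, its neighbour in the genome, had 25.6, 45.5 and 21 CPM in CP1 and 139.6, 179, 179 and 158 CPM in CP2 (log2 2.42 ± 0.27, adjusted p = 0.000286). Both are ligands of the canonical pathway, and both were higher in all CP2 tumours. Wnt11 (log2 1.92 ± 0.25, adjusted p = 0.000576) and Wnt5b (log2 3.09 ± 0.37, adjusted p = 0.00043) were also higher, and Wnt3 and Wnt7a rose from near 0 to 0.997, 2.1, 1.11 and 1.25 CPM and 1.78, 1.3, 2.46 and 2.68 CPM.

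The ligands lower in CP2 were Wnt5a and Wnt10b. Wnt5a, best known for signalling without beta-catenin, had 1410, 1071 and 1105 CPM in CP1 and 542, 595, 636 and 617 CPM in CP2 (log2 -1 ± 0.11, adjusted p = 0.000279). Wnt10b had 6.36, 8.05 and 3.86 CPM in CP1 and 2.15, 1.85, 2.28 and 1.39 CPM in CP2 (log2 -1.67 ± 0.29, adjusted p = 0.0024). The values of both did not overlap between the lines. Compared per length, as CPM per kilobase of exon, the most highly expressed ligand genes in CP1 were Wnt4 (104 to 199), Wnt5a (137 to 180.2) and Wnt2 (117 to 187), whose tumour values overlapped. In CP2 the order by level was Wnt4 (144 to 179.5), Wnt2 (95.1 to 118), Wnt10a (70.3 to 83.6), Wnt5a (69.3 to 81.2) and Wnt6 (63.7 to 81.8). The values of Wnt4 and Wnt2 did not overlap there, and those of the last 3 did. Wnt4 (log2 0.05 ± 0.21, adjusted p = 0.849), Wnt7b (log2 0.53 ± 0.21, adjusted p = 0.0667) and Wnt2 (log2 -0.41 ± 0.17, adjusted p = 0.0701) were not called. Wnt7b was called higher by DESeq2 (0.53, adjusted p = 0.0369), with counts thinned to equal totals (0.54, adjusted p = 0.0473) and without CP1 replicate 2 (0.29, adjusted p = 0.0364). Wnt2 was called lower by DESeq2 (-0.41, adjusted p = 0.0415), without CP1 replicate 3 (-0.54, adjusted p = 0.0363) and without CP1 replicates 2 and 3 (-0.81, adjusted p = 0.00254).

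The secreted Wnt antagonists split between the lines. Of 14 antagonist and R-spondin genes tested, 8 were higher and 3 lower in CP2. Wif1, which binds Wnt ligands outside the cell, had 4.14, 22 and 2.1 CPM in CP1 and 679, 692, 601 and 719.7 CPM in CP2 (log2 6.14 ± 0.83, adjusted p = 0.000699). Sfrp2, a secreted Frizzled-like protein, had 104, 199 and 119.6 CPM in CP1 and 949, 1120, 1197 and 1141 CPM in CP2 (log2 2.97 ± 0.24, adjusted p = 7.14e-05), and Dkk3 had 19.8, 36.5 and 33.2 CPM in CP1 and 274, 204, 183 and 208 CPM in CP2 (log2 2.86 ± 0.24, adjusted p = 8.95e-05). Each was higher in all CP2 tumours. Dkk2, a ligand of the co-receptors Lrp5 and Lrp6, and its partner Kremen1 were higher by less (0.79 ± 0.16 and 0.73 ± 0.08, adjusted p = 0.00454 and 0.000243). Sostdc1 was low in both lines and higher in CP2 (log2 2.49 ± 0.51, adjusted p = 0.00499). Other Sfrp genes went the opposite way. Sfrp1 had 178, 143 and 138 CPM in CP1 and 46.3, 33.4, 43.9 and 59.4 CPM in CP2 (log2 -1.74 ± 0.18, adjusted p = 0.000233) and Sfrp5 132, 18 and 97.1 CPM in CP1 and 6.66, 6.01, 10.7 and 6.47 CPM in CP2 (log2 -3.46 ± 0.60, adjusted p = 0.00229), with no overlap. Frzb was lower at -1.06 ± 0.30 (adjusted p = 0.0201), with overlapping values, and was not called with P1 in the fit (adjusted p = 0.0505), without CP1 replicate 2 or 3, without CP2 replicate 1 or 2, or without CP1 replicates 2 and 3 (-0.59, adjusted p = 0.309). Rspo4, which encodes an R-spondin that protects Frizzled receptors from Rnf43 and Znrf3, had 1 count over CP1 and 581 over CP2 (ratio 579.8, 95% interval 103.7 to 22940), or 5.61, 7.71, 8.87 and 6.18 CPM in the CP2 tumours.

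Receptor genes moved in both directions. Of 17 receptor and co-receptor genes, all tested, 5 were higher and 7 lower, and without CP1 replicates 2 and 3 the counts were 4 higher and 5 lower of 17. Fzd4 had 21, 22.7 and 21.7 CPM in CP1 and 7.82, 5.96, 7.9 and 8.62 CPM in CP2 (log2 -1.52 ± 0.14, adjusted p = 0.000109) and Fzd7 55.6, 40.1 and 75.5 CPM in CP1 and 23.4, 25.4, 22.9 and 28.5 CPM in CP2 (log2 -1.19 ± 0.20, adjusted p = 0.00186). Fzd5 (-0.999 ± 0.12) and Fzd6 (-0.81 ± 0.14) were lower too (adjusted p = 0.000403 and 0.00255). All CP2 tumours lay below all CP1 tumours for these 4 genes. Fzd10 went up from 0.509, 1.94 and 1.01 to 6.29, 8.46, 7.11 and 5.22 CPM (log2 2.54 ± 0.43, adjusted p = 0.00204). Ptk7, a co-receptor of planar cell polarity, had 19.9, 32 and 29.2 CPM in CP1 and 112, 113, 97.6 and 104 CPM in CP2 (log2 1.98 ± 0.16, adjusted p = 7.64e-05), and Lrp4 had 13.9, 30.3 and 24.5 CPM in CP1 and 77.5, 89.5, 66.6 and 78.2 CPM in CP2 (log2 1.77 ± 0.25, adjusted p = 0.000867). The latter 3 were higher in every CP2 tumour.

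**Figure D2:**
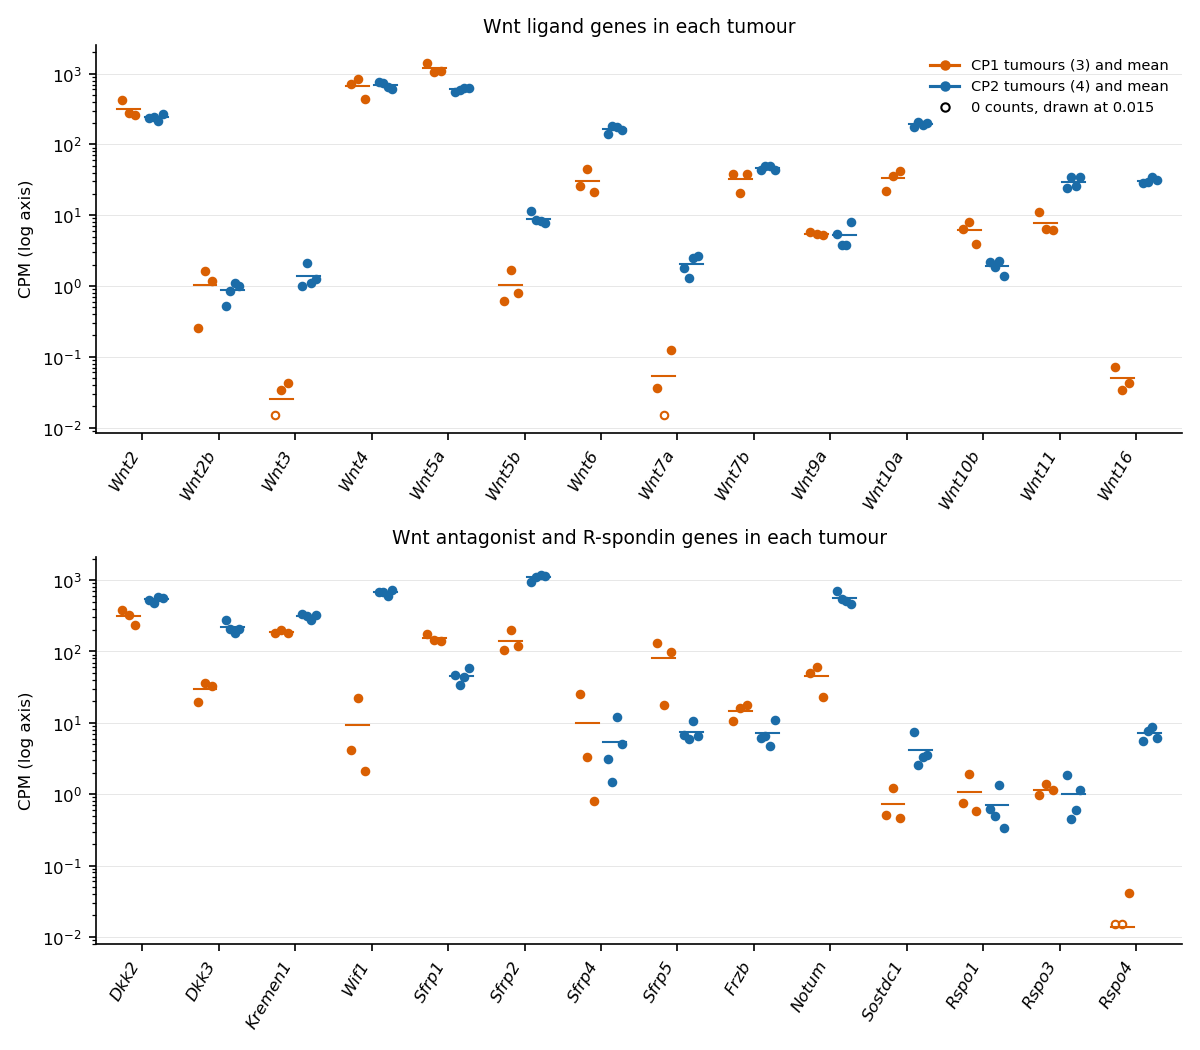
Level in each tumour of the 14 tested Wnt ligand genes (upper panel) and the 14 tested antagonist and R-spondin genes (lower panel), in CPM on a log axis, with open points for tumours at 0 counts. Wnt16, Wif1 and Rspo4 show the widest gaps between CP1 and CP2, and Wnt5a, Wnt10b, Sfrp1 and Sfrp5 lie lower in CP2.

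The genes with the largest rises came from several families. Krt42, a keratin gene, had 0.145, 0.0334 and 0.0839 CPM in CP1 and 95.2, 151, 136 and 138 CPM in CP2 (log2 10.47 ± 0.33, adjusted p = 4.11e-06), and Slitrk1, a neuronal membrane protein gene, had 0.109, 0.0668 and 0 CPM in CP1 and 50.3, 32.8, 52.4 and 37.4 CPM in CP2 (log2 9.34 ± 0.42, adjusted p = 9.75e-06). Bex1 (log2 7.69 ± 0.36, adjusted p = 1.07e-05), Tmem163 (log2 7.75 ± 0.25, adjusted p = 4.17e-06) and the keratin gene Krt90 (log2 8.31 ± 0.53, adjusted p = 3.01e-05) were likewise near 0 in CP1. Zic2 and Zic5, neighbouring genes of neural transcription factors on chromosome 14, had 1 and 1 count over CP1 and 1376 and 560 over CP2. The ratios were 1373 for Zic2 (95% interval 246.1 to 54280) and 558.9 for Zic5 (95% interval 99.9 to 22110). Ctla4, an inhibitory receptor of T cells, had 1 and 454 counts (ratio 453.1, 95% interval 80.91 to 17940), at 6.4, 7.36, 4 and 4.74 CPM in CP2. The values of all of these genes were higher in each CP2 tumour than in any CP1 tumour, as the rule that chose them required.

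Of the 12 largest falls, 6 lie on chromosome 15, which holds 3.88% of the genes tested. These were Gsdmc3, Gsdmc2, Snx31, Psca, Nell2 and Ly6f. Neighbours such as Gsdmc3 and Gsdmc2 do not count as independent genes. Among the 12 largest rises, 4 lie on chromosome 14, which holds 3.285% of the genes tested. The reason for either grouping was not tested. Gsdmc3 and its near-identical neighbour Gsdmc2, which encode gasdermins, could share reads. Gsdmc3 had 1.42, 41.9 and 36.6 CPM in CP1 against 0 counts over all CP2 tumours, which made it at least 723-fold lower there. The bound was 482-fold without CP1 replicate 2 and 38.5-fold with CP1 replicate 1 alone, and the gene was not called with no filter on low counts (adjusted p = 0.150). Gsdmc2 had 3.05, 109 and 72.8 CPM in CP1 and 0.0524, 0.1, 0.0929 and 0.0479 CPM in CP2 (log2 -9.61 ± 1.44, adjusted p = 0.00115). Ly6f, a surface protein gene of the Ly6 family, had 105, 21.5 and 67.5 CPM in CP1 and 0.315, 0.15, 0.186 and 0.144 CPM in CP2 (log2 -8.32 ± 0.68, adjusted p = 7.48e-05). Gm773, on the X chromosome, had 9.63, 15.4 and 6.21 CPM in CP1 against 0 counts over CP2, and was at least 292-fold lower. Nell2 (log2 -9.43 ± 0.50, adjusted p = 1.70e-05) and Cntn3 (log2 -8.50 ± 1.09, adjusted p = 0.000563), genes best known from neurons, had 108, 85.3 and 46.4 and 47.4, 20.8 and 4.24 CPM in CP1 and at most 0.232 and 0.144 CPM in CP2. These falls were present in all CP1 tumours, including replicate 1, although Gsdmc3 and Gsdmc2 were highest in replicate 2.

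Others of the largest falls were highest in the CP1 tumours with urothelial transcripts. Upk1a, a uroplakin gene, had 20.1, 435 and 183 CPM in CP1 and 0.629, 1.55, 0.325 and 0.431 CPM in CP2 (log2 -8.18 ± 1.12, adjusted p = 0.000765), Aqp3, a water channel gene, had 6.87, 108 and 86 CPM in CP1 and 0.472, 0.15, 0.0929 and 0.144 CPM in CP2 (log2 -8.28 ± 1.10, adjusted p = 0.000667), and Psca had 12.5, 238 and 73.7 CPM in CP1 and 0.105, 0.1, 0.139 and 0.0479 CPM in CP2 (log2 -10.03 ± 1.30, adjusted p = 0.000586). Snx31 had 5.45, 109 and 43.4 CPM in CP1 and 3 counts over CP2 (ratio 1482, 95% interval 506.9 to 7190), and Gjb6, a connexin gene, had 0.654, 19.9 and 10.7 CPM and 2 counts (ratio 435.9, 95% interval 120.3 to 3605). Without CP1 replicate 2 these ratios were 626 and 217, and with CP1 replicate 1 alone they were 148 (95% interval 49.7 to 726) and 26.6 (95% interval 6.38 to 237). In each case CP1 replicate 1 was lowest within CP1 and above every CP2 tumour. With these CP1 tumours left out the fitted values were -4.78 for Upk1a, -5.00 for Aqp3, -6.91 for Psca and -5.27 for Gsdmc2, and all 4 stayed called (adjusted p = 0.00217, 0.000829, 4.36e-05 and 0.000249).

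Genes of the glandular lining were more often lower than higher in CP2. Of 24 luminal epithelium genes tested (25 listed), 4 were higher and 13 lower, with a median of -1.37. The list took 0.14, 0.302 and 0.234% of counts in CP1 and 0.16, 0.124, 0.111 and 0.103% in CP2, against 1.16 to 2.35% in P1, so the lines' shares overlapped and were below those of P1. Without CP1 replicates 2 and 3 the counts were 4 higher and 9 lower of 25. Krt18, a keratin of simple epithelia, had 303, 381 and 465 CPM in CP1 and 70.1, 24.6, 15.8 and 20.2 CPM in CP2 (log2 -3.55 ± 0.51, adjusted p = 0.00098), but was not called without CP1 replicates 2 and 3 (-3.22, adjusted p = 0.0508). Foxa1, a pioneer factor of luminal cells, had 90, 148 and 103 CPM in CP1 and 35.4, 34.9, 37 and 27.2 CPM in CP2 (log2 -1.76 ± 0.18, adjusted p = 0.000208). Krt7 had 28.7, 430.4 and 251 CPM in CP1 and 10.3, 3.45, 2.74 and 5.94 CPM in CP2 (log2 -5.41 ± 0.89, adjusted p = 0.0018), Elf3, an epithelial ETS factor, -3.22 ± 0.44 (adjusted p = 0.000727) and Cldn4, a tight junction gene, -3.15 ± 0.50 (adjusted p = 0.00155). Without CP1 replicates 2 and 3 these were -2.37, -1.98 and -1.69, each called (adjusted p = 0.0334, 0.00844 and 0.03). All 5 genes were lower in every CP2 tumour.

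Krt8, the partner of Krt18, had 56.5, 261 and 178 CPM in CP1 and 120.1, 40.4, 22.5 and 27.5 CPM in CP2 and was not called (log2 -1.65 ± 0.68, adjusted p = 0.0761), and CP2 replicate 1 lay within the CP1 range. It was called lower without CP2 replicate 1 (-2.45, adjusted p = 0.0126) and without CP1 replicate 1 (-2.06, adjusted p = 0.0344). Cdh1, which encodes E-cadherin, had 25.8, 104 and 63.4 CPM in CP1 and 36.2, 26.5, 17.1 and 22.6 CPM in CP2 (log2 -1.34 ± 0.44, adjusted p = 0.0352), with overlapping values. That call was lost without CP1 replicate 2 (-0.80, adjusted p = 0.140), CP1 replicate 3 (-1.35, 0.0793) or CP2 replicate 2, 3 or 4 (-1.35, -1.18 and -1.27; 0.0771, 0.0885 and 0.0871) and with no filter on low counts (adjusted p = 0.123), and the difference was -0.01 without CP1 replicates 2 and 3. Among the luminal genes higher in CP2, Dpp4, a cell surface peptidase gene, had 4.51, 3.14 and 1.59 CPM in CP1 and 95, 86.1, 99 and 94.8 CPM in CP2 (log2 4.91 ± 0.30, adjusted p = 2.70e-05).

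Basal and squamous genes moved in both directions. Of 15 basal epithelium genes 3 were higher and 6 lower, and without CP1 replicates 2 and 3 the counts were 5 higher and 3 lower of 15. Krt14 had 9.45, 14 and 23.4 CPM in CP1 and 64.2, 118, 113 and 127 CPM in CP2 (log2 2.76 ± 0.36, adjusted p = 0.000616), and Krt17 had 0.691, 0.802 and 0.671 CPM in CP1 and 2.78, 7.81, 7.01 and 7.81 CPM in CP2 (log2 3.13 ± 0.40, adjusted p = 0.000588). These basal keratins were higher in all CP2 tumours. Krt15 had 33.2, 554 and 327 CPM in CP1 and 4.56, 6.26, 4.83 and 1.63 CPM in CP2 (log2 -6.14 ± 0.92, adjusted p = 0.00116) and was -2.95 without CP1 replicates 2 and 3, where it was still called (adjusted p = 0.00906). Krt5 had 20.5, 364 and 251 CPM in CP1 and 8.65, 27.9, 26.8 and 20.6 CPM in CP2 (log2 -3.33 ± 0.83, adjusted p = 0.0116), with CP1 replicate 1 inside the CP2 range, and was not called with no filter on low counts (adjusted p = 0.0664) or without CP1 replicates 2 and 3 (0.03, adjusted p = 0.977). Col17a1, a hemidesmosome collagen, was lower (log2 -4.51 ± 0.85, adjusted p = 0.00335), and not called without these 2 tumours (-1.92, adjusted p = 0.111). Il33, an alarmin cytokine gene, was 409, 290.1 and 448 CPM in CP1 and 36.2, 23.3, 38.2 and 40.5 CPM in CP2 (log2 -3.47 ± 0.22, adjusted p = 3.20e-05), with no overlap. Of 11 squamous and cornified genes 3 were higher and 5 lower, or 3 higher and 2 lower of 13 without CP1 replicates 2 and 3. The lower count was 3 without CP1 replicate 3.

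Urothelial and smooth muscle genes were more often lower than higher in CP2, and levels of those named here varied within CP1. Of 12 urothelium genes tested 0 were higher and 9 lower, and 1 higher and 6 lower of 13 without CP1 replicates 2 and 3. Upk2 had 5.09, 132 and 54.7 CPM in CP1 and 0.21, 0.3, 0.232 and 0.479 CPM in CP2 (log2 -7.68 ± 1.15, adjusted p = 0.00116), Upk3a 8.4, 256 and 103 CPM in CP1 and 0.21, 1.45, 0.279 and 0 CPM in CP2 (log2 -7.98 ± 1.32, adjusted p = 0.00178) and Upk1b 17.7, 396 and 150.5 CPM in CP1 and 2.88, 5.96, 4.41 and 0.863 CPM in CP2 (log2 -5.74 ± 1.03, adjusted p = 0.00265). CP1 replicate 1 was the lowest CP1 tumour for each and still above CP2. Without the other CP1 tumours the differences were -4.03 (adjusted p = 0.000487), -4.11 (0.0398) and -2.33 (0.0612), and Upk1b was not called. Of 12 smooth muscle genes 0 were higher and 9 lower, but 2 higher and 0 lower of 12 without CP1 replicates 2 and 3. Acta2, the smooth muscle actin gene, had 234, 646 and 778 CPM in CP1 and 83.8, 89.1, 58.6 and 161 CPM in CP2 (log2 -2.50 ± 0.46, adjusted p = 0.00296). The differences of Acta2, Tagln (log2 -3.04 ± 0.62, adjusted p = 0.00498), Actg2 (log2 -5.24 ± 0.98, adjusted p = 0.00324) and Des (log2 -3.68 ± 0.91, adjusted p = 0.0115) were -1.26, -1.04, -1.66 and -0.26 without them, none called (adjusted p = 0.123, 0.249, 0.141 and 0.846). Des was also not called with no filter on low counts (adjusted p = 0.0660). The part of host urothelium and muscle in these differences was not tested.

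**Figure D3:**
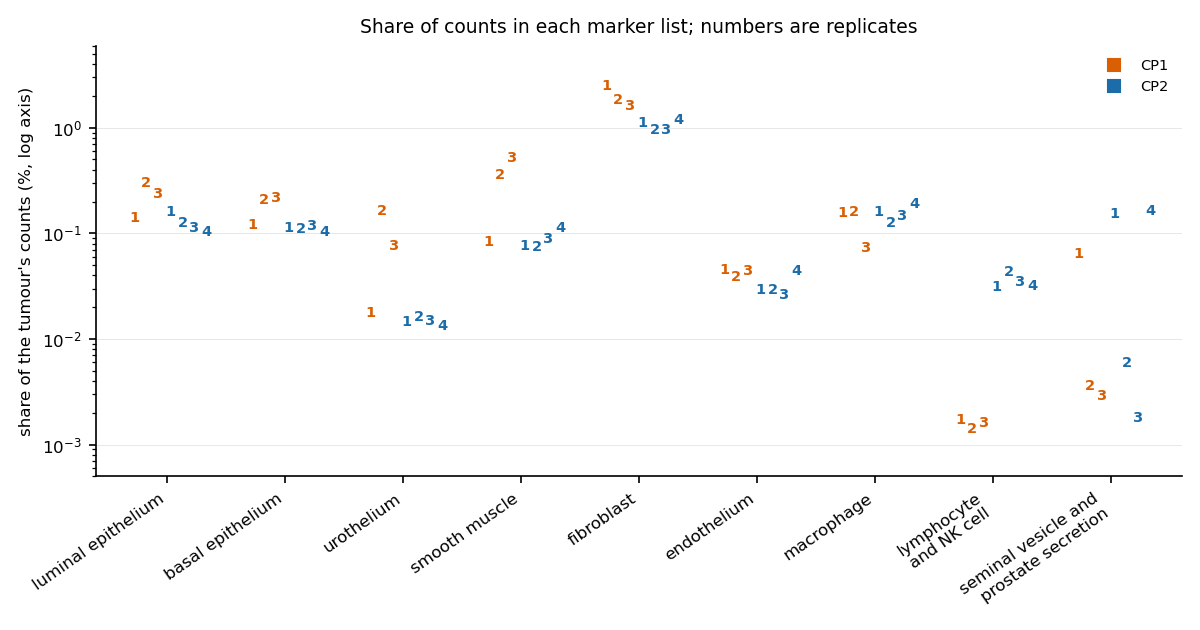
Share of each tumour's counts, in percent on a log axis, taken by 9 marker lists, with each tumour drawn as its replicate number (CP1 orange, CP2 blue). CP1 replicates 2 and 3 stand above replicate 1 for urothelium and smooth muscle, and the lymphocyte and NK cell list is higher in all 4 CP2 tumours.

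Of 18 mesenchymal transition genes 4 were higher and 7 lower, against 25.2% and 26.5% of all genes. Twist1, a bHLH factor that drives epithelial-mesenchymal transition, had 3.82, 3.04 and 2.6 CPM in CP1 and 154, 159, 144 and 150.4 CPM in CP2 (log2 5.58 ± 0.14, adjusted p = 1.65e-06). Snai2 had 2.18, 7.22 and 5.03 CPM in CP1 and 33.4, 32.6, 34.2 and 28.9 CPM in CP2 (log2 2.74 ± 0.35, adjusted p = 0.000577), and Zeb1 85, 68 and 68.4 CPM in CP1 and 184, 150, 172 and 188 CPM in CP2 (log2 1.23 ± 0.12, adjusted p = 0.000133). All 3 were higher in every CP2 tumour. Snai1, a relative of Snai2, had 100.5, 65.1 and 86.4 CPM in CP1 and 37.6, 38.5, 33 and 45.3 CPM in CP2 (log2 -1.12 ± 0.16, adjusted p = 0.000887), and Fn1, which encodes fibronectin, had 4988, 3532 and 4269 CPM in CP1 and 1445, 1441, 1225 and 1756 CPM in CP2 (log2 -1.54 ± 0.15, adjusted p = 0.000168). Both were lower in every CP2 tumour. Vim, which encodes the filament protein vimentin, was abundant in both lines, at 4585, 4419 and 5002 CPM in CP1 and 3951, 3971, 4003 and 3524 CPM in CP2 (log2 -0.27 ± 0.08, adjusted p = 0.0249). That call was lost with P1 in the fit (adjusted p = 0.224), without CP1 replicate 3 (0.0698), without any 1 of the CP2 tumours (0.0517 to 0.0794) and without CP1 replicates 2 and 3 (0.0994).

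Collagen genes were called about as often as all genes (53.3% against 51.7%), and more of them were lower than higher in CP2. Of 30 collagen genes 5 were higher and 11 lower; the higher count was 8 without CP1 replicate 1 and 3 without CP1 replicates 2 and 3. Col1a1, the main chain of collagen I, had 6979, 4275 and 5126 CPM in CP1 and 1463, 1387, 951 and 1980 CPM in CP2 (log2 -1.92 ± 0.26, adjusted p = 0.000679), and Col18a1 2207, 1629 and 1125 CPM in CP1 and 453, 496, 556 and 480.2 CPM in CP2 (log2 -1.74 ± 0.20, adjusted p = 0.000381). Col12a1 was lower at -2.17 ± 0.39 (adjusted p = 0.00264), or -1.07 without CP1 replicates 2 and 3 (adjusted p = 0.0379), and Col13a1 higher at 1.86 ± 0.16 (adjusted p = 9.26e-05). Of 15 fibroblast genes 4 were higher and 8 lower, and the lower count was 5 without CP1 replicate 1, CP1 replicate 3 or CP2 replicate 2, and 4 without CP2 replicate 1. Dpt, which encodes dermatopontin, had 53.9, 54 and 53 CPM in CP1 and 436, 349, 406 and 470.4 CPM in CP2 (log2 2.95 ± 0.11, adjusted p = 5.38e-06), and Pdgfra, a growth factor receptor gene of mesenchymal cells, had 43.7, 80.2 and 93 CPM in CP1 and 262, 250.5, 216 and 264 CPM in CP2 (log2 1.78 ± 0.24, adjusted p = 0.000738). For both, all CP2 tumours were higher. Fibroblast transcripts took 2.48, 1.84 and 1.62% of counts in CP1 and 1.12, 0.944, 0.954 and 1.18% in CP2, and their part in the collagen differences was not tested.

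Adhesion and protease genes also divided. Of 29 integrin and laminin genes 11 were higher and 11 lower, and of 21 matrix metalloproteinase and inhibitor genes 7 were higher and 7 lower. Itga4, a subunit that binds fibronectin and VCAM-1, had 7.67, 8.76 and 4.66 CPM in CP1 and 58.7, 67.3, 61.7 and 67.1 CPM in CP2 (log2 3.17 ± 0.21, adjusted p = 3.44e-05). Itgb8 had 65.3, 47.7 and 91.8 CPM in CP1 and 2.15, 1.4, 1.95 and 0.958 CPM in CP2 (log2 -5.40 ± 0.32, adjusted p = 2.16e-05), and Itga7, a laminin-binding subunit, 51, 36.1 and 46.1 CPM in CP1 and 5.35, 3.1, 4.51 and 4.41 CPM in CP2 (log2 -3.35 ± 0.19, adjusted p = 2.14e-05). Itga4 was higher and the other genes were lower in all CP2 tumours. Mmp9, a gelatinase gene also expressed by neutrophils, had 115, 95.2 and 54.5 CPM in CP1 and 611, 942, 936 and 1358 CPM in CP2 (log2 3.45 ± 0.36, adjusted p = 0.000205). Mmp3 (log2 2.10 ± 0.12, adjusted p = 1.91e-05) and Mmp10 (log2 2.14 ± 0.22, adjusted p = 0.000192), stromelysin genes, were higher, and Adamts4, an aggrecanase gene, was lower (log2 -2.25 ± 0.27, adjusted p = 0.000442). Of 10 neutrophil genes tested, Mmp9 was the 1 higher, and 5 were lower, or 8 without CP1 replicate 1 and 2 without CP1 replicates 2 and 3.

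Cytotoxic genes were among the most changed genes in CP2. Perforin, encoded by Prf1, and granzymes are the proteins by which natural killer cells and cytotoxic T cells kill targets. Of 17 lymphocyte and NK cell genes 12 passed the filter, and 9 were higher and 0 lower, with 7 higher and 1 lower of 15 without CP1 replicates 2 and 3. The list took 0.0014 to 0.0017% of counts in CP1 and 0.031 to 0.0426% in CP2. Prf1 (ENSMUSG00000037202, chr10:61297833-61304680, plus strand) had 0.436, 1.6 and 1.55 CPM in CP1 and 162, 226, 172 and 158 CPM in CP2 (log2 7.23 ± 0.39, adjusted p = 1.77e-05). Gzmb had 0.218, 1.17 and 1.09 CPM in CP1 and 71.4, 117, 87.8 and 92.3 CPM in CP2 (log2 6.80 ± 0.43, adjusted p = 3.02e-05). Both were lowest in CP1 replicate 1, low in the other CP1 tumours and high in every CP2 tumour.

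Gzmc, Gzmd, Gzme, Gzmf and Gzmg, neighbours of Gzmb on chromosome 14, rose with it. Gzmm, another granzyme gene, was lower at a low level, with 0.872, 1.00 and 0.629 CPM in CP1 and 0.472, 0.350, 0.465 and 0.623 CPM in CP2 (log2 -0.80 ± 0.29, adjusted p = 0.0485), and Gzmn and Gzmk had 0 counts over CP1 and 43 and 10 over CP2 and did not pass the filter. Gzmg was named by the rule for large rises, and the others named here were chosen after their values were seen. The transcripts of Gzmc to Gzmg are similar, so reads that fit more than 1 of them may have been misassigned or not counted. The longest run shared by the 5 RefSeq promoter windows (GRCm38.p6) of these genes was 20 bases long. It is given in capitals within stretches of 90 bases before the starts, to show how alike these upstream stretches are.
Gzmc (chr14:56234658-56234747, minus strand, -90 to -1): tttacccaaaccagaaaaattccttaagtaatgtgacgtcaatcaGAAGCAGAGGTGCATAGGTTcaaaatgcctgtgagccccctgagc
Gzmd (chr14:56132598-56132687, minus strand, -94 to -5): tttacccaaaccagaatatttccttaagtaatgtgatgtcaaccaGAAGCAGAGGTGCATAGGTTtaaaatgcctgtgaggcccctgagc
Gzme (chr14:56120631-56120720, minus strand, -95 to -6): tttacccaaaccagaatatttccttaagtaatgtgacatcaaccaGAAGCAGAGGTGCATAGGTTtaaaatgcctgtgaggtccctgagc
Gzmf (chr14:56211433-56211522, minus strand, -115 to -26): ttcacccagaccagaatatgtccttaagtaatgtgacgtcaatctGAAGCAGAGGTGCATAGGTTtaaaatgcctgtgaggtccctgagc
Gzmg (chr14:56159600-56159689, minus strand, -110 to -21): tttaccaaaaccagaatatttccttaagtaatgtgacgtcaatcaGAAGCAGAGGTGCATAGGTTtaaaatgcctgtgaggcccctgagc
Of 32851 promoter windows 5 (0.0152%) held this run on either strand, those of the 5 genes. Gzmg had 0.545, 4.01 and 1.72 CPM in CP1 and 437, 560, 371 and 384 CPM in CP2 (log2 7.69 ± 0.60, adjusted p = 6.19e-05), and Gzmd 0.763, 3.58 and 2.77 CPM in CP1 and 405, 481, 352 and 341 CPM in CP2 (log2 7.37 ± 0.48, adjusted p = 3.41e-05). Gzmc (6.62 ± 0.45), Gzme (7.56 ± 0.57) and Gzmf (7.09 ± 0.76) rose as well (adjusted p = 3.82e-05, 5.39e-05 and 0.000246). Within CP1, replicate 1 was lowest for all 5, and every CP2 tumour exceeded every CP1 tumour. Per kilobase of exon, the mean level in CP2 was 482 CPM for Gzmg, 463 for Gzmf, 409 for Gzmd, 389 for Gzmc and 208 for Gzme, against 69.5 for Prf1 and 64.2 for Gzmb.

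Other lymphocyte genes were far lower than the granzymes. Il2rb, a chain of the receptors for interleukin-2 and interleukin-15, had 8.07, 5.75 and 10.3 CPM in CP1 and 51.1, 50.9, 45.7 and 39.6 CPM in CP2 (log2 2.54 ± 0.21, adjusted p = 7.19e-05). Ncr1, a receptor of natural killer cells, had 0.145, 0.0334 and 0.294 CPM in CP1 and 3.78, 3.45, 3.3 and 2.06 CPM in CP2 (log2 4.33 ± 0.53, adjusted p = 0.000475), Nkg7 0.327, 0.267 and 0.336 CPM in CP1 and 3.1, 4.66, 4.6 and 4.22 CPM in CP2 (log2 3.72 ± 0.26, adjusted p = 4.13e-05) and Cd3g 0.109, 0.1 and 0 CPM in CP1 and 2.25, 3.9, 3.62 and 2.35 CPM in CP2 (log2 5.28 ± 0.56, adjusted p = 0.00024). Each was higher in all CP2 tumours, but per kilobase Ncr1 stood at 2.04 CPM and Nkg7 at 4.53 CPM in CP2. The T cell genes Cd3e and Cd8a stood at 0.0117 and 0.0731 CPM per kilobase in CP2 and the granzyme gene Gzma at 0.824. These 3 did not pass the filter. The T cell genes Cd4 and Trac stood higher, at means of 0.975 and 0.828 CPM per kilobase in CP2. In CP1 the means were 0.356 for Cd4 and 1.48 for Trac. Tumour values did not overlap between the lines for Cd4 and did for Trac. Lymphocytes and expression in other cells cannot be told apart in RNA of whole tumours. Macrophage genes did not move with these, as 0 of 15 were higher and 1 lower in CP2 (2 higher without CP1 replicate 1, and 0 lower without CP1 replicate 3, CP2 replicate 2, 3 or 4, or CP1 replicates 2 and 3), at 0.0725 to 0.159% of counts in CP1 and 0.125 to 0.19% in CP2. Of 15 endothelial genes 0 were higher and 10 lower, among them the receptor gene Kdr (log2 -0.69 ± 0.18, adjusted p = 0.0136), whose values overlapped.

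Interferon response genes were higher in CP2 than in CP1. Of 28 genes, all tested, 23 were higher and 0 lower, with a median of 1.78. The test against a 2-fold change called 14 higher, against 5.45% of all genes. The list took 0.0518 to 0.0686% of counts in CP1, 0.0915 to 0.175% in CP2 and 0.0706 to 0.168% in P1. The P1 shares thus overlapped those of CP2 and lay above those of CP1. Without CP1 replicates 2 and 3 the counts were 19 higher and 2 lower of 28, and without CP1 replicate 2 alone 2 genes were lower. Irf7, the factor that amplifies type I interferon, had 11.6, 13 and 21.3 CPM in CP1 and 59.1, 108, 85.6 and 81.8 CPM in CP2 (log2 2.45 ± 0.28, adjusted p = 0.000305). Ifit1, an antiviral effector gene, had 9.12, 5.45 and 15.1 CPM in CP1 and 38, 88.7, 62.9 and 60.3 CPM in CP2 (log2 2.66 ± 0.40, adjusted p = 0.00121), and Oas3, an enzyme gene activated by double-stranded RNA, 1.53, 1.47 and 1.38 CPM in CP1 and 8.76, 26.5, 18.2 and 22.1 CPM in CP2 (log2 3.69 ± 0.39, adjusted p = 0.000232). All were higher in every CP2 tumour. Bst2, encoding tetherin, had 44.7, 41.9 and 45.3 CPM in CP1 and 102, 235, 185 and 224 CPM in CP2 (log2 2.08 ± 0.27, adjusted p = 0.000624). The chemokine genes Cxcl9 and Cxcl10 had 0.763, 0.969 and 0.21 CPM in CP1 and 10.2, 19.6, 40.2 and 29.6 CPM in CP2, and 2.47, 3.24 and 2.6 CPM in CP1 and 16.8, 48.6, 44.5 and 40.5 CPM in CP2 (5.22 ± 0.64 and 3.76 ± 0.39, adjusted p = 0.000466 and 0.000208). For each of the 23 higher genes the lowest CP2 tumour was replicate 1, and for 21 of the 23 the highest was replicate 2. Without CP2 replicate 1 the count was again 23 higher and 0 lower.

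Genes of MHC class I presentation were higher in CP2, while of the class II genes H2-Aa, H2-Ab1, H2-Eb1 and Cd74 none was called. The antigen presentation list took 0.128 to 0.214% of counts in CP1, 0.317 to 0.460% in CP2 and 0.332 to 0.432% in P1. Of 16 antigen presentation genes 8 were higher and 0 lower, or 6 higher and 5 lower of 16 without CP1 replicates 2 and 3 and 4 lower without CP1 replicate 3. H2-K1 had 216, 214 and 170.1 CPM in CP1 and 571, 938, 831 and 869 CPM in CP2 (log2 2.00 ± 0.19, adjusted p = 0.000126), and its light chain B2m 569, 508 and 344 CPM in CP1 and 1026, 1555, 1417 and 1604 CPM in CP2 (log2 1.56 ± 0.22, adjusted p = 0.000789). H2-D1 (log2 1.72 ± 0.17, adjusted p = 0.000156) and the peptide transporter gene Tap1 (log2 2.15 ± 0.24, adjusted p = 0.000313) were higher as well. The class I genes are near-identical copies in part, so that reads may be shared. Every CP2 tumour exceeded every CP1 tumour for these 4 genes, and CP2 replicate 1 was the lowest CP2 tumour for all 8 called genes. Cd74, the class II invariant chain, had 225, 167 and 48.7 CPM in CP1 and 67.2, 45.5, 98.9 and 94.2 CPM in CP2 and was not called (log2 -0.94 ± 0.48, adjusted p = 0.135), but was called lower without CP1 replicate 3 (-1.36, adjusted p = 0.0114) and without CP1 replicates 2 and 3 (-1.56, adjusted p = 0.0308).

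Of 23 NF-kappaB and chemokine genes 11 were higher and 5 lower. Nfkb2, the precursor of the non-canonical subunit p52, had 116, 57.1 and 79.7 CPM in CP1 and 260.2, 387, 403 and 369.5 CPM in CP2 (log2 2.08 ± 0.26, adjusted p = 0.000523), and Nfkbie, an inhibitor, 25.4, 13.3 and 14.3 CPM in CP1 and 63.2, 104, 107 and 97.2 CPM in CP2 (log2 2.39 ± 0.29, adjusted p = 0.000412). Nfkb1, the precursor of p50, was lower (log2 -0.64 ± 0.11, adjusted p = 0.00189). The chemokine gene Ccl5 rose to 9.81, 14.3, 8.04 and 7.14 CPM from 1.31, 1.84 and 0.713 CPM (log2 2.92 ± 0.39, adjusted p = 0.000655). Ccl7, a monocyte chemokine gene, had 424, 131 and 300 CPM in CP1 and 6.24, 14.2, 10.7 and 12.1 CPM in CP2 (log2 -4.72 ± 0.44, adjusted p = 0.000128). The values of all 5 genes did not overlap between the lines.

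**Figure D4:**
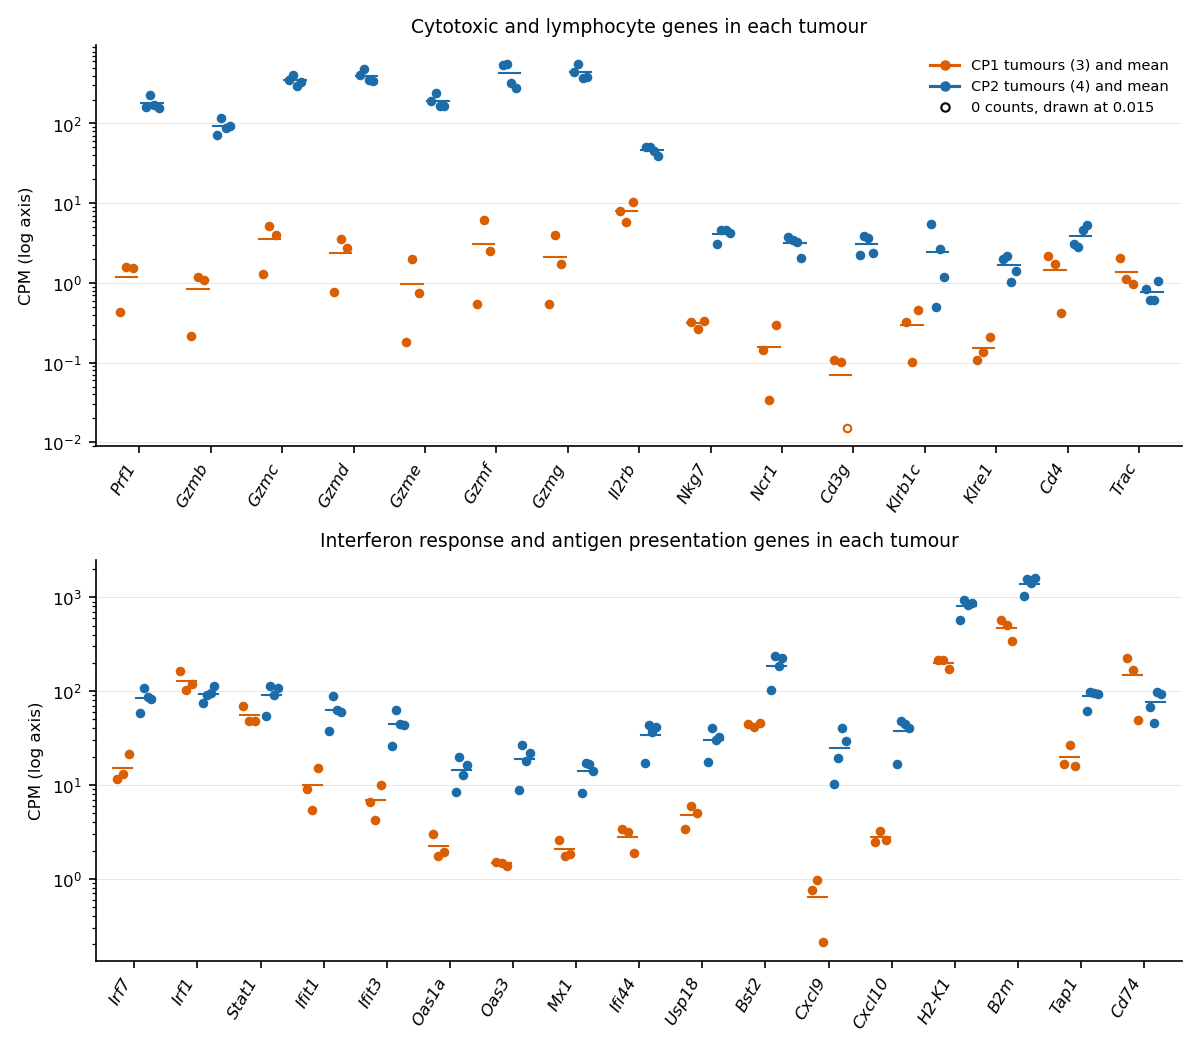
Level in each tumour of cytotoxic and lymphocyte genes (upper panel) and of interferon and antigen presentation genes (lower panel), in CPM on a log axis. Prf1 and the genes Gzmb to Gzmg are at 0.182 to 6.21 CPM in CP1 and at 71.4 to 562.4 CPM in CP2, and among CP2 tumours replicate 1 is lowest for the called interferon genes.

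Among growth factor pathways outside Wnt, FGF genes were more often higher than lower. Of 19 FGF genes tested 11 were higher and 1 lower in CP2, and the lower count was 2 without CP1 replicate 3 or CP2 replicate 4 and 3 without CP1 replicates 2 and 3. The feedback and target genes Spry4 (log2 1.45 ± 0.14, adjusted p = 0.000133) and Etv4 (log2 1.54 ± 0.10, adjusted p = 3.26e-05) and the receptor-like gene Fgfrl1 (log2 2.49 ± 0.13, adjusted p = 1.38e-05) were higher, and the ligand gene Fgf7 was lower (log2 -3.16 ± 0.52, adjusted p = 0.00182). Of 31 BMP and TGF-beta genes 10 were higher and 9 lower, against 25.2% and 26.5% of all genes, or 11 higher and 5 lower of 31 without CP1 replicates 2 and 3. The ligand gene Bmp5 had 0.691, 3.01 and 1.76 CPM in CP1 and 33.5, 43.5, 35.2 and 32.1 CPM in CP2 (log2 4.29 ± 0.42, adjusted p = 0.000165), and Bmp2 205, 215 and 246 CPM in CP1 and 507, 492, 478 and 456 CPM in CP2 (log2 1.12 ± 0.08, adjusted p = 4.82e-05). Noggin, a BMP antagonist encoded by Nog, rose at a low level (0.218, 0.368 and 0.378 CPM in CP1 and 5.77, 5.96, 3.48 and 3.69 CPM in CP2, log2 3.86 ± 0.35, adjusted p = 0.000111), and the BMP target Id2 was higher (log2 2.10 ± 0.19, adjusted p = 0.000109). All values named here were separate between the lines.

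Of 14 Hedgehog genes 8 were higher and 4 lower. The ligand gene Shh had 0.872, 36.2 and 20.6 CPM in CP1 and 0.157, 0.35, 0.186 and 0.0958 CPM in CP2 (log2 -6.57 ± 1.19, adjusted p = 0.00276) and was highest in CP1 replicates 2 and 3, the difference without CP1 replicates 2 and 3 being -2.12 (adjusted p = 0.0337). Hhip, which binds and holds back Hedgehog ligands, had 0.218, 1.57 and 1.3 CPM in CP1 and 32.8, 37.2, 63.9 and 40.1 CPM in CP2 (log2 5.39 ± 0.54, adjusted p = 0.000183). The co-receptor gene Cdon had 7.12, 8.35 and 6.33 CPM in CP1 and 77.7, 61.7, 59.7 and 76.4 CPM in CP2 (log2 3.24 ± 0.15, adjusted p = 1.03e-05), and the effector gene Gli2 was higher at 1.57 ± 0.30 (adjusted p = 0.00375), or 0.90 without CP1 replicates 2 and 3 (adjusted p = 0.0031). Notch and IGF genes were called no more often than all genes (51.7%). Of 16 Notch genes 2 were higher and 4 lower; the receptor gene Notch3 (log2 -1.63 ± 0.10, adjusted p = 2.39e-05) and the ligand gene Jag2 (log2 -2.50 ± 0.17, adjusted p = 3.94e-05) were lower. Of 14 IGF genes 1 was higher and 5 lower. Igf1 (log2 -2.06 ± 0.26, adjusted p = 0.000553), the binding protein gene Igfbp5 (log2 -3.65 ± 0.43, adjusted p = 0.000398) and the receptor gene Igf2r (log2 -1.54 ± 0.09, adjusted p = 1.91e-05) were lower. The gene called higher was another receptor gene, Igf1r (log2 1.02 ± 0.12, adjusted p = 0.000329). The higher count was 2 without CP1 replicate 3 or without CP1 replicates 2 and 3.

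Axon guidance genes were called in both directions. Of 31 axon guidance genes 13 were higher and 11 lower, or 77.4% called against 51.7% of all genes. The test against a 2-fold change was passed by 13 (41.9%, against 11.1% of all genes). Robo1, a receptor of Slit proteins, had 4, 6.05 and 6.67 CPM in CP1 and 110, 127, 129.5 and 127 CPM in CP2 (log2 4.47 ± 0.18, adjusted p = 6.53e-06). Unc5d, a netrin receptor gene, had 0.291, 0.134 and 0.21 CPM in CP1 and 16.4, 10.6, 13.6 and 10.4 CPM in CP2 (log2 5.89 ± 0.33, adjusted p = 1.97e-05). Both rose in each CP2 tumour. Efnb2, which encodes ephrin-B2, had 433, 385 and 529 CPM in CP1 and 99.3, 85.1, 94.5 and 82.4 CPM in CP2 (log2 -2.31 ± 0.12, adjusted p = 1.68e-05), and Unc5a was lower at -5.62 ± 0.91 (adjusted p = 0.00161), or -2.54 without CP1 replicates 2 and 3 (adjusted p = 0.0112). Among developmental transcription factors, Pax3, of the neural crest and muscle, had 0.182, 0.201 and 0.294 CPM in CP1 and 14.2, 12.6, 12.9 and 12.9 CPM in CP2 (log2 5.85 ± 0.21, adjusted p = 5.04e-06), and Pax9 0.436, 0.301 and 0.168 CPM in CP1 and 7.08, 6.06, 7.01 and 6.52 CPM in CP2 (log2 4.43 ± 0.30, adjusted p = 3.94e-05). Gata4 had 15.7, 13.7 and 19.7 CPM in CP1 and 0.787, 1.25, 0.929 and 1.44 CPM in CP2 (log2 -3.88 ± 0.24, adjusted p = 2.89e-05). Of 27 Hox genes tested 11 were higher and 2 lower, and the lower count was 4 without CP1 replicate 1. Hoxb7 (log2 2.53 ± 0.20, adjusted p = 6.11e-05) and Hoxb9 (log2 1.46 ± 0.18, adjusted p = 0.000467) were higher, and Hoxa11 was lower (log2 -0.54 ± 0.08, adjusted p = 0.00117).

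Some genes of hormones and nerve terminals differed widely between the lines. Cck, which encodes the peptide hormone cholecystokinin, had 1065, 836 and 1148 CPM in CP1 and 16.8, 20.8, 20.6 and 30.9 CPM in CP2 (log2 -5.51 ± 0.23, adjusted p = 7.69e-06). Syp, which encodes the synaptic vesicle protein synaptophysin, had 1.13, 0.735 and 0.378 CPM in CP1 and 14.2, 14.1, 13.2 and 16.4 CPM in CP2 (log2 4.25 ± 0.33, adjusted p = 6.19e-05). Cyp11b1, a steroid hydroxylase gene chosen after its values were seen, had 194, 155 and 299 CPM in CP1 and 2.2, 5.41, 3.07 and 5.27 CPM in CP2 (log2 -5.75 ± 0.37, adjusted p = 3.03e-05). Cck and Cyp11b1 were thus higher in CP1 and Syp in CP2, with no overlap, though Cck was still present in every CP2 tumour. Of 8 neuroendocrine genes tested 3 were higher and 3 lower. Of 19 androgen response genes 3 were higher and 6 lower, or 5 higher and 3 lower of 19 without CP1 replicates 2 and 3.

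The metabolic lists given here held more genes lower than higher in CP2, against 26.5% lower and 25.2% higher over all genes. For hypoxia and glycolysis the share called was 45.5%, under the 51.7% of all genes. Of 23 glutathione and antioxidant genes tested 3 were higher and 14 lower. Gpx3, a secreted glutathione peroxidase gene, had 1321, 2746 and 1846 CPM in CP1 and 111, 41.1, 37.7 and 59.5 CPM in CP2 (log2 -4.99 ± 0.45, adjusted p = 0.000117). Gstm1 (log2 -3.83 ± 0.68, adjusted p = 0.00248), Gsta4 (log2 -5.06 ± 0.93, adjusted p = 0.00304) and Gpx2 (log2 -6.13 ± 1.18, adjusted p = 0.00374) were lower and were highest in CP1 replicate 2. With CP1 replicates 2 and 3 left out they stood at -1.25, -1.48 and -3.66, each called (adjusted p = 0.00402, 0.0478 and 0.043). Slc7a11, the cystine importer gene that supplies glutathione synthesis, went the other way, at 14.7, 30.4 and 18.6 CPM in CP1 and 199.7, 200.5, 189.8 and 179.7 CPM in CP2 (log2 3.18 ± 0.24, adjusted p = 6.02e-05). Of 18 cholesterol synthesis genes 0 were higher and 13 lower, but 0 higher and 3 lower of 18 without CP1 replicates 2 and 3. Sqle, which encodes squalene epoxidase, had 180.1, 252 and 392 CPM in CP1 and 54.9, 33.9, 82.7 and 36.6 CPM in CP2 (log2 -2.40 ± 0.37, adjusted p = 0.00129), and Srebf2, the regulator of the pathway, -0.86 ± 0.16 (adjusted p = 0.00313). Of 22 hypoxia and glycolysis genes 1 was higher and 9 lower, with Eno1, which encodes enolase, at 586, 545 and 666 CPM in CP1 and 256, 275, 223 and 242 CPM in CP2 (log2 -1.27 ± 0.10, adjusted p = 6.11e-05). The lower count was 4 or 5 without CP1 replicate 3, CP2 replicate 1, 2 or 3, or CP1 replicates 2 and 3, and the higher count ranged from 0 to 3.

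Cell cycle genes were called about as often as all genes (52.0% against 51.7%). Of 25 cell cycle genes 9 were higher and 4 lower, with a median of 0.17. The test against a 2-fold change was passed by 0 of them, against 11.1% of all genes. The counts were 0 higher and 3 lower of 25 without CP1 replicates 2 and 3, with 5 higher without CP1 replicate 2 or 3 and 2 lower without CP1 replicate 1 or CP2 replicate 2. Rrm2, a subunit of ribonucleotide reductase, had 477, 894 and 1223 CPM in CP1 and 359.6, 259, 241 and 260.5 CPM in CP2 (log2 -1.63 ± 0.29, adjusted p = 0.00276) and -0.77 without CP1 replicates 2 and 3 (adjusted p = 0.0335). Cdkn2a, the tumour suppressor locus of p16 and p19, was under 1 CPM in all 7 tumours, at 0.727, 0.702 and 0.671 CPM in CP1 and 0.629, 0.551, 0.372 and 0.479 CPM in CP2, and was not called (log2 -0.47 ± 0.26, adjusted p = 0.163). Of 20 ribosome biogenesis genes 1 was higher and 10 lower, or 6 lower without CP1 replicate 1 or CP2 replicate 1, and 0 higher without CP1 replicates 2 and 3. Of 21 imprinted genes 3 were higher and 10 lower, and the higher count was 1 without CP2 replicate 2, 3 or 4. Peg10, a paternally expressed gene, had 9.63, 9.89 and 43.7 CPM in CP1 and 0.367, 0.3, 0.325 and 1.25 CPM in CP2 (log2 -5.21 ± 0.76, adjusted p = 0.00103).

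**Figure D5:**
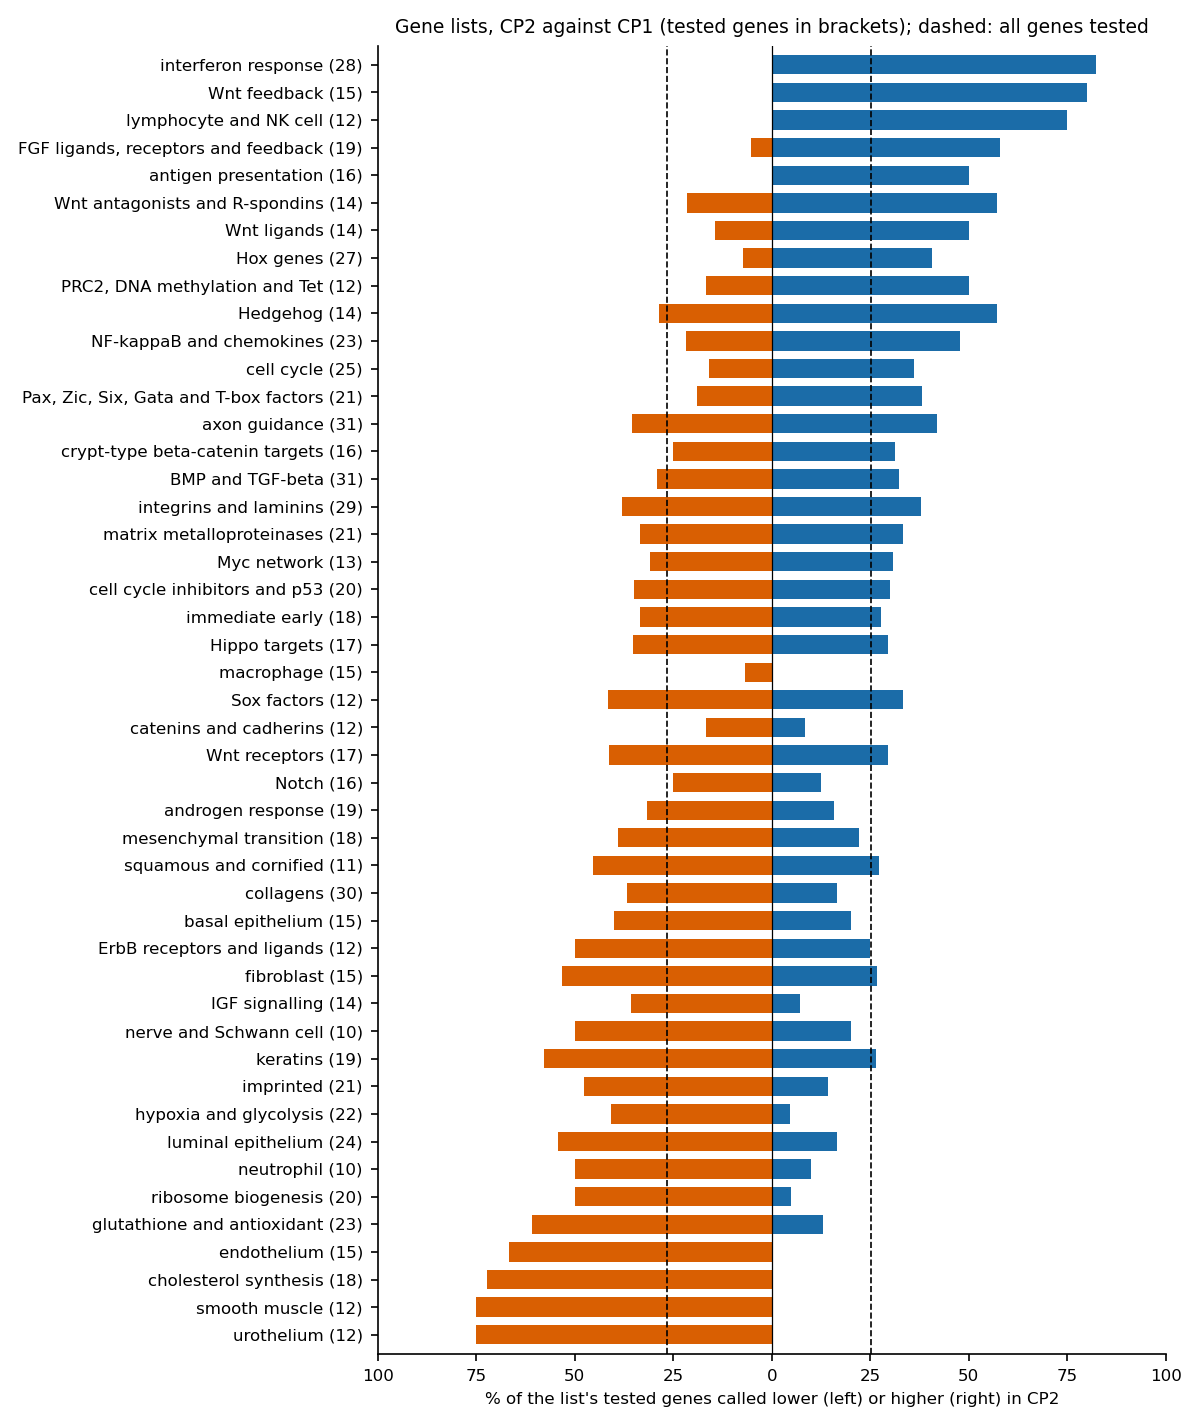
Share of the tested genes of each list (at least 10 tested, number in brackets) called higher in CP2 (blue, to the right) or lower (orange, to the left), in percent. Dashed lines mark the shares over all genes tested, 25.2% higher and 26.5% lower. Interferon response and Wnt feedback reach furthest to the right, and urothelium and smooth muscle furthest to the left.

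The remaining lists are given by their counts. Hippo targets had 5 higher and 6 lower of 17 tested. In the same order the calls were 4 and 5 of 12 for Sox factors, 3 and 6 of 12 for ErbB genes, 5 and 6 of 18 for immediate early genes, and 6 and 2 of 12 for Polycomb, DNA methylation and Tet genes (5 higher and 1 lower of 12 without CP1 replicates 2 and 3). They were 5 and 11 of 19 for keratins (7 lower without CP1 replicate 3, 5 higher and 6 lower of 20 without CP1 replicates 2 and 3), 8 and 4 of 21 for Pax, Zic, Gata, T-box and related factors (2 lower without CP1 replicate 3), 4 and 4 of 13 for the Myc network, 6 and 7 of 20 for cell cycle inhibitors and related genes (5 higher and 4 lower of 20 without that pair), 2 and 5 of 10 for nerve and Schwann cell genes and 0 and 4 of 7 for mesothelium (1 higher and 2 lower of 7 without that pair, 1 higher without CP1 replicate 2). They were 0 and 1 of 7 for adipocytes, or 5 lower without CP2 replicate 3, and 1 and 1 of 7 for skeletal muscle, with 0 to 3 lower when 1 tumour was left out and 0 lower without CP1 replicates 2 and 3. They were 1 and 2 of 12 for catenins and cadherins, the lower count being 4 without CP1 replicate 1, 1 without CP1 replicate 2, CP2 replicate 3 or CP2 replicate 4, and 0 without CP1 replicate 3 or CP2 replicate 2, and the higher count 2 without CP1 replicate 2 or CP2 replicate 3. Leaving out CP1 replicates 2 and 3 gave 3 higher and 0 lower of 13. For seminal vesicle and prostate secretion, 1 of 9 was higher and 1 lower. That list took 0.0641, 0.0036 and 0.0029% of counts in CP1 and 0.151, 0.0059, 0.0018 and 0.162% in CP2, so the lines' ranges overlapped, and the higher count ranged from 0 to 4 when 1 tumour was left out. The counts were 0 higher and 4 lower of 15 without CP1 replicates 2 and 3. Other settings moved some of the counts above by over 1.5 times. With no filter on low counts, 5 squamous genes were higher, 5 fibroblast and 5 Hox genes were lower, 2 mesothelium genes were lower, 1 imprinted gene was higher and 3 crypt targets were higher. With P1 in the fit, 2 crypt targets and 3 Hippo targets were higher, and DESeq2 called 5 secretion genes higher and 1 interferon gene lower.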

How the data were processed

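RNA of 10 orthograft tumours was sequenced, and the 7 tumours of CP1 and CP2 were compared. Per the submitters' processing notes the genome was GRCm38.p3, and the tools named were DESeq2 1.14.1 in R 3.2.3, HTSeq 0.6.0, TopHat2 2.1.0 with Bowtie2 2.2.6.0, and FastQC 0.11.4. The deposited values were raw counts per Ensembl gene for each tumour, as whole numbers; whether counting used strand is a detail not given in the sources used. Of 47069 gene IDs, 46574 had a GENCODE M21 symbol. Tumours were grouped by tissue label.

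Counts were filtered with filterByExpr (minimum count 10, minimum total 15), scaled by TMM and tested in edgeR 4.0.16 (R 4.3.3, limma 3.58.1) with the robust quasi-likelihood fit on the 7 tumours and Benjamini-Hochberg adjustment, at an adjusted p of 0.05. A second test, glmTreat, asked for a change beyond 2-fold. The scripts were tested on simulated data. CPM use effective library sizes, and levels per kilobase divide by exon length. The SE was derived from the fold change and its F statistic. A line with 0 counts was set to a floor of 3 counts over the line, and with 1 to 3 counts a ratio with its exact 95% interval was given; both cover counting error only.

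The members and gene lists were chosen with earlier results of these data known. Genes were named by rule: a short list of pathway genes, the 12 largest rises and 12 largest falls with no overlap and a mean of at least 5 CPM, and up to 3 called genes per direction and list. More than 54 further genes, mostly list members, are outside this rule, chosen with their values in view. The checks across settings and for outlying tumours cover 179 of the named genes, of which 169 were called. Part of the genotype and some genes of the rule are not reported here. Alternatives were DESeq2 1.42.0, RLE size factors, no filter on low counts, all 10 tumours in the fit, counts thinned to 18800912, a fit without the robust option, each tumour left out, and CP1 replicates 2 and 3 left out.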

Additional observations from a re-analysis of the deposited data

Results flagged for a closer look

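In the 179 named genes, 1 CP2 tumour stood apart from the other 3 for 18 genes (10.1%) by Dixon's criterion, which chance meets in about 1 group in 20. No explanation of these values was tested.

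CP2 replicate 1 stood apart for 7 genes. It was highest for Krt18 at 70.1 CPM, Rrm2 at 359.6 CPM and Aqp3 at 0.472 CPM. It was lowest for Tap1 at 61.7 CPM, Nfkb1 at 126 CPM, Krt17 at 2.78 CPM and Robo1 at 110.0 CPM. This is the tumour whose title names CP1.

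CP2 replicate 2 was highest for Cldn4 at 15.1 CPM, Col17a1 at 3.20 CPM and Gpx2 at 0.350 CPM. CP2 replicate 3 was highest for Sfrp5 at 10.7 CPM, Spry4 at 43.7 CPM and Snx31 at 0.139 CPM, and lowest for Fgfrl1 at 157.6 CPM. CP2 replicate 4 was highest for Des at 99.8 CPM, Kdr at 25.8 CPM and Peg10 at 1.25 CPM, and lowest for Vim at 3524 CPM.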

How the results depend on the processing

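The number of genes called was 6548 to 8694 over 14 alternatives against 8388, and 7077 to 8273 when 1 tumour was left out; past 2-fold it was 1427 to 2093 against 1799. Of 169 named genes called, 157 kept direction and call under all 14 alternatives, and 11 lost the call without CP1 replicates 2 and 3, the setting in which 35 of 106 list counts moved by over 1.5 times. In the other settings 0 to 14 list counts did. Direction turned for 4 genes. Krt5 was 0.028 without CP1 replicates 2 and 3. Tcf7l1 ranged from -0.54 (without CP1 replicate 1) to 0.14 (without CP1 replicate 2) when 1 tumour was left out and was 0.18 without CP1 replicates 2 and 3. Tcf7l2 ranged from -0.19 (without CP1 replicate 3) to 0.024 (without CP1 replicate 1). Wnt4 ranged from -0.18 (without CP1 replicate 3) to 0.25 (without CP1 replicate 2) and was -0.069 without CP1 replicates 2 and 3. The cause was not tested. DESeq2 gave no adjusted p for 31 genes. No paired analysis was possible because the lines share no replicate number that marks a common animal or batch. With 3 and 4 tumours from 1 derivation each, results describe these lines, and at this depth values near the floor of 3 counts rest on few reads.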
